A study of Homo sapiens with 12 samples.

Results

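Transcripts of 10 genes of transforming growth factor beta (TGF-beta) and bone morphogenetic protein (BMP) signalling were followed in 2 liver cancer cell lines grown flat or inside a gel. The genes were chosen by name, as ID1, ID2, ID3, SMAD6, SMAD7, SKIL, TGFB1, TGFB2, BMP4 and BAMBI. Earlier results of these data were known when they were chosen. All 10 were found once among the 58735 genes of the deposited tables, and all 10 passed the filter on low counts.

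TGF-beta and BMP ligands are secreted proteins that bring together type II and type I receptor kinases on the cell surface. TGF-beta receptors mainly phosphorylate SMAD2 and SMAD3, BMP receptors mainly SMAD1, SMAD5 and SMAD9, and each group enters the nucleus with SMAD4 to switch genes on or off. The ID genes are standard readouts of BMP signalling, while SMAD6, SMAD7, SKIL and BAMBI are induced by the pathway and dampen it. In the liver, BMP signalling controls the iron hormone hepcidin, and TGF-beta is known for growth arrest of hepatocytes, for fibrosis and for the loss of epithelial traits in liver cancer cells.

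The data were RNA-seq libraries of Huh7 and HLF, established lines of human hepatocellular carcinoma, both given as wild-type. Each line was grown as a flat culture (2D), as cells injected into Matrigel that had already set (Inject-Embed), and as cells stirred into Matrigel before it set (Mix-Embed), with 2 biological replicates in each of the 6 groups, or 12 libraries. Matrigel is a gel of basement membrane proteins made by a mouse tumour. Flat cultures were collected at about 90% confluence on day 2, and gel cultures between day 6 and day 8. Inject-Embed wells received 4000 Huh7 or 2000 HLF cells, and Mix-Embed wells 20000 Huh7 or 10000 HLF cells. Gel, time in culture and cell number therefore changed together and cannot be told apart. The labels call the replicates biological without saying what they did not share, so p-values measure only the spread between replicates of this kind. The spread of each gene was estimated largely with help from all genes.

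Library totals ran from 12325877 to 16041906 counts. In every group the replicates differed by more than sampling noise. Mitochondrial ribosomal RNA genes took 0.306% to 0.315% of the counts of Huh7 2D libraries and 0.477% to 0.543% of those of Huh7 gel libraries. For HLF these shares were 0.293% to 0.3% when flat and 0.468% to 0.597% in gel. This share moved with culture in both lines, and its part in the results was not tested. CPM are counts scaled to a common library size with TMM, but the marker sums that follow use library totals alone. The 9 hepatocyte markers summed to between 35670 and 45510 CPM in the Huh7 libraries. In the HLF libraries they summed to between 34.6 and 176 CPM, and APOB and TTR were at 0 counts in all HLF groups. In HLF the 9 mesenchymal markers summed to between 2869 and 3286 CPM, against 152 to 228 CPM in Huh7. The 9 fibroblast and stellate cell markers summed to between 178 and 343 CPM in all libraries. The 9 endothelial markers summed to no more than 15.9 CPM and the 8 macrophage and leukocyte markers to no more than 9.17 CPM, with CD163 at 0 in every group. HLF thus carried little of the RNA that defines hepatocytes.

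Of the 10 genes, 4 rose against 2D in both gel cultures of both lines: ID1, ID3, SMAD6 and BAMBI. Their promoters are shown for that reason, as the 250 bases before the start in RefSeq (GRCh38.p14), 5′ to 3′ on the strand of the gene. ID1 is at chr20:31605039-31605288 on the plus strand, ID3 at chr1:23559502-23559751 on the minus strand, SMAD6 at chr15:66701986-66702235 on the plus strand and BAMBI at chr10:28677271-28677520 on the plus strand. Capitals mark matches, on either strand, to 3 SMAD-related motifs: GGCGCC and CAGAC, both bound by SMAD proteins in textbook sites, and the palindrome GTCTAGAC. None of the 3 contains another.
ID1: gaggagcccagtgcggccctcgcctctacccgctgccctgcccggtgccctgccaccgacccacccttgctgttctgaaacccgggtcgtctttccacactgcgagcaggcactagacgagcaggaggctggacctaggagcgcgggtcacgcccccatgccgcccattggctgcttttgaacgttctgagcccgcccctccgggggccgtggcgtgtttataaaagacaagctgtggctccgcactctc
ID3: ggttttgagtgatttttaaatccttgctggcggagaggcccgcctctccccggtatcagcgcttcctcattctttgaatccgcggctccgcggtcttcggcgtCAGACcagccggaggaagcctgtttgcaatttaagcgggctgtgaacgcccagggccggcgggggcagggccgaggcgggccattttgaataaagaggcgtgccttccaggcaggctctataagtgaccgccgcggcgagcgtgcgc
SMAD6: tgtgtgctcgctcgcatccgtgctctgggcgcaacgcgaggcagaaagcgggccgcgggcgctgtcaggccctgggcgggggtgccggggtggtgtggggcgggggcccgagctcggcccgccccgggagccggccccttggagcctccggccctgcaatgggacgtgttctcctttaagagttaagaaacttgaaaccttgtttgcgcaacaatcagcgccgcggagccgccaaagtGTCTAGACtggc
BAMBI: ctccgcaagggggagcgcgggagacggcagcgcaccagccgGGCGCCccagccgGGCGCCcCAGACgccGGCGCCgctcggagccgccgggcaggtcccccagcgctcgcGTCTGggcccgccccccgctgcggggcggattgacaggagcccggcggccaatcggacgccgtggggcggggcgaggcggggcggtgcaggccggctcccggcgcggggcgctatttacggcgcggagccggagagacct
In these stretches the palindrome stood only before SMAD6, 12 bases upstream of the start, and GGCGCC stood only before BAMBI, at 209, 196 and 181 bases upstream. CAGAC stood once before ID3 and occurred 2 times before BAMBI, and the stretch before ID1 held none of the 3 motifs. The RefSeq start lies downstream of the gene start in the deposited table for all 4 genes, so part of each stretch lies inside that gene: 6 of the 250 bases for ID1, 8 for SMAD6, 179 for BAMBI and all 250 for ID3.

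All 10 genes had a promoter in the RefSeq table, with 14 promoters in total because SMAD7 and BMP4 have 3 each. In windows of 300 bases (250 before and 50 after the start), GGCGCC occurred in 19.2% of all 35116 promoters, CAGAC in 45.3% and GTCTAGAC in 0.202%. Besides BAMBI, GGCGCC occurred 1 time at SKIL and 2 times in 1 of the BMP4 promoters. Besides SMAD6, no member promoter held GTCTAGAC. ID1, ID2, SMAD6 and TGFB1 had no CAGAC. These matches describe the letters of the windows and are not measured binding.

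Per unit of transcript length, as the deposited FPKM, ID1 was the most abundant of the 10 transcripts in all 6 groups. Its mean FPKM was 82.1 in flat Huh7 and 70.5 in flat HLF, and reached 163 in Huh7 Inject-Embed, 158 in Huh7 Mix-Embed, 197 in HLF Inject-Embed and 252 in HLF Mix-Embed. ID2, a close relative, was the second in 5 groups, and in HLF Mix-Embed ID3 stood above it, with 133 against 118 FPKM. The third place in Huh7 belonged to BAMBI in each culture (21.5 FPKM in 2D, 49.5 in Inject-Embed, 37.6 in Mix-Embed). In HLF 2D it belonged to TGFB1 (50 FPKM). TGFB2 was the least abundant in all Huh7 groups, at 0.315 to 0.399 FPKM, and BMP4 in all HLF groups, at 0.6 to 1.41 FPKM.

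**Figure D1:**
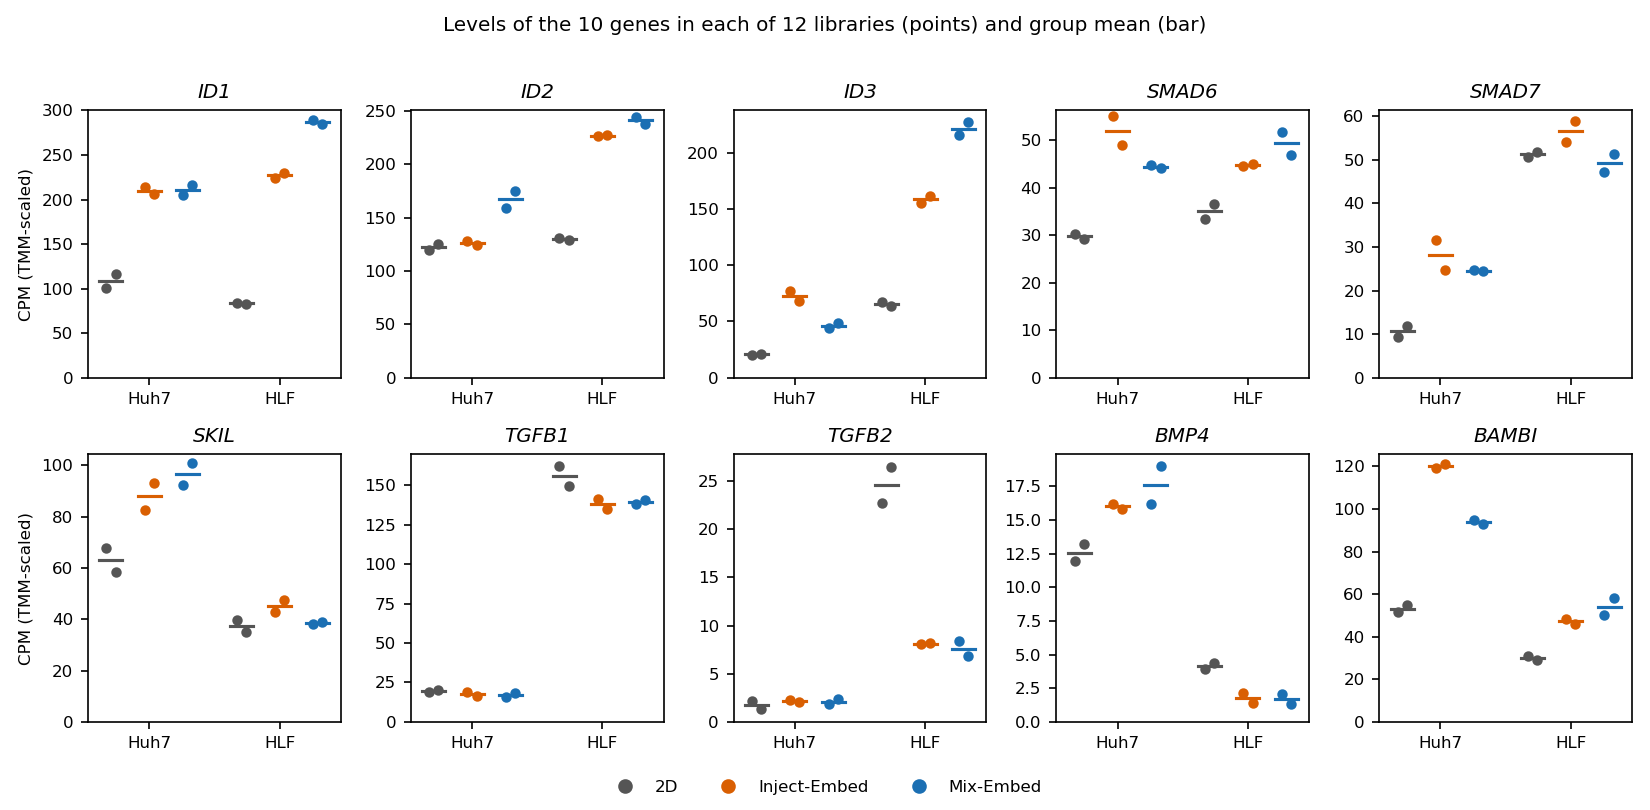
Level of each of the 10 genes in each library, in CPM scaled by the trimmed mean of M values (TMM), on axes that start at 0. Points are the 2 replicates of a group and bars are group means. ID1 is higher in both gel cultures than in 2D in both lines, while TGFB2 and BMP4 are lower in the gel cultures only in HLF.

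In Huh7, 6 of the 10 genes were higher and none was lower in Inject-Embed than in 2D (edgeR quasi-likelihood test, Benjamini-Hochberg adjusted p under 0.05 over 19342 genes), where 13.2% of all tested genes were called higher and 16.7% lower. In Huh7 Mix-Embed, 8 were higher than in 2D and none was lower, against 11.2% and 10.6% of all tested genes. In HLF Inject-Embed, 6 were higher and 3 lower than in 2D, against 9.09% and 8.86%. In HLF Mix-Embed, 5 were higher and 3 lower, against 14.4% and 14.6%. The genes that rose were feedback inhibitors and ID genes in each case, with BMP4 added in Huh7 Mix-Embed, and the genes that fell in HLF were the 3 ligands TGFB1, TGFB2 and BMP4. With library totals as the only scaling, the split of all calls moved in HLF, where 63.34% of called genes were higher in Inject-Embed (50.65% with TMM) and 62.37% in Mix-Embed (49.76% with TMM). No called member changed direction there. Inject-Embed and Mix-Embed share the 2D libraries of their line, so their counts are not independent. Because the 10 genes were chosen with earlier results of these data known, such counts, here and below, describe these genes only. They are no test of the set against all genes. In bulk RNA, fewer cells that express a gene and less RNA of it per cell cannot be told apart.

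**Figure D2:**
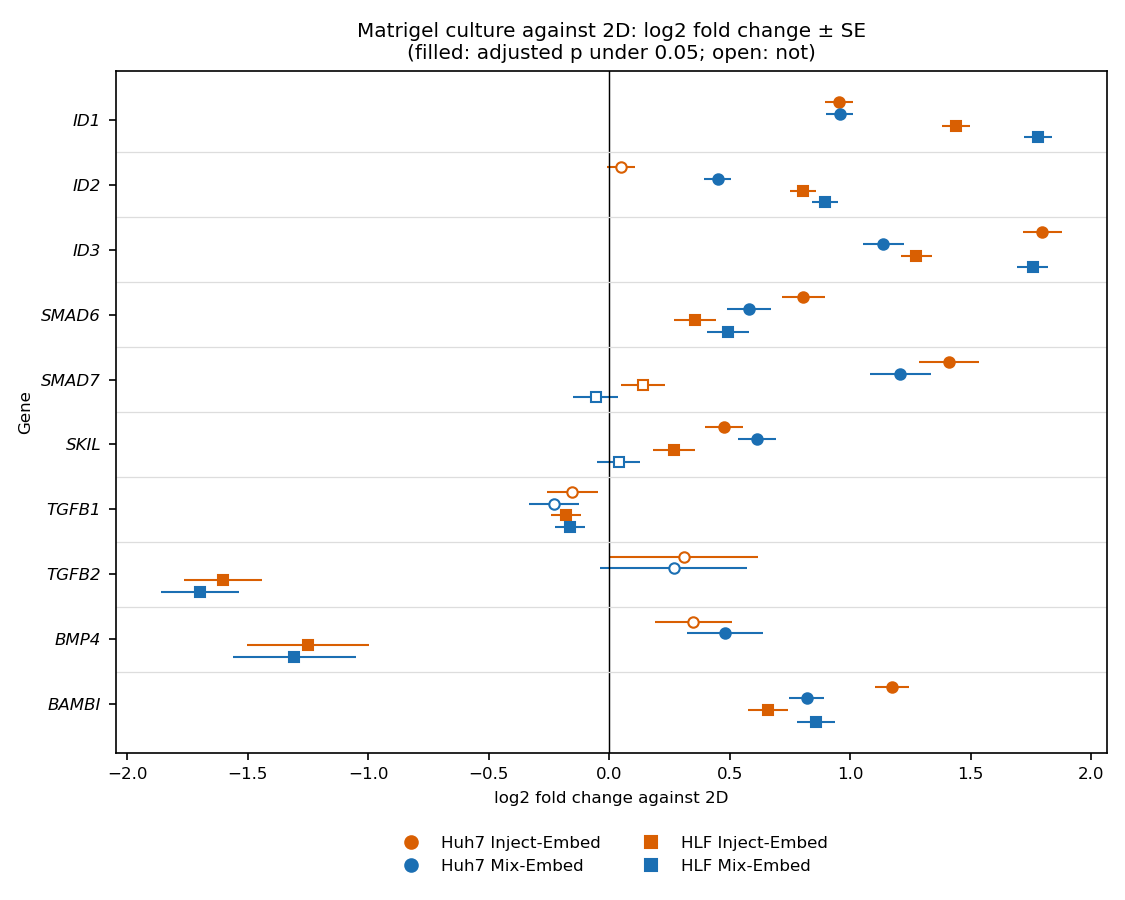
Log2 fold change against 2D (x axis) of each gene (y axis), with bars of 1 SE, for Inject-Embed (orange) and Mix-Embed (blue) in Huh7 (circles) and HLF (squares). Filled symbols passed adjusted p under 0.05. ID1, ID3, SMAD6 and BAMBI are filled and right of 0 in all 4 comparisons, TGFB2 and BMP4 are filled and left of 0 in HLF, and SMAD7 is filled only in Huh7.

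ID1 (ENSG00000125968, chr20:31605283-31606515, plus strand) encodes a protein that blocks basic helix-loop-helix factors by pairing with them and lacks a DNA-binding region. In Huh7 it was at 101 and 117 CPM in 2D, 214 and 206 CPM in Inject-Embed, and 205 and 216 CPM in Mix-Embed. In HLF it was at 84.4 and 83.0 CPM in 2D, 224 and 230 CPM in Inject-Embed, and 290 and 285 CPM in Mix-Embed. Every gel library stood above every flat library of its line. The 2 gel cultures overlapped in Huh7 and were separate in HLF. In Huh7 the log2 fold change against 2D was 0.95 ± 0.058 (SE, n = 2 against 2) with injection (adjusted p = 1.34e-17) and 0.96 ± 0.058 with mixing (adjusted p = 2.45e-17). In HLF it was 1.44 ± 0.058 (adjusted p = 1.73e-23) and 1.78 ± 0.058 (adjusted p = 2.49e-27). ID1 thus rose by about 1.93-fold in Huh7 Inject-Embed and more in HLF, where Mix-Embed exceeded Inject-Embed.

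ID3 (ENSG00000117318, chr1:23557918-23559794, minus strand) encodes another such inhibitor and is a direct BMP target. Its level in Huh7 was 20.6 and 21.4 CPM in 2D, 77.3 and 68.4 CPM in Inject-Embed, and 44.1 and 48.5 CPM in Mix-Embed. In HLF it was 67.3 and 63.6 CPM in 2D, 155 and 162 CPM in Inject-Embed, and 215 and 227 CPM in Mix-Embed. The 3 cultures of each line were fully separated, with Inject-Embed highest in Huh7 and Mix-Embed highest in HLF. The log2 fold change was 1.80 ± 0.081 in Huh7 Inject-Embed (adjusted p = 5.49e-22), 1.14 ± 0.085 in Huh7 Mix-Embed (adjusted p = 3.21e-14), 1.28 ± 0.064 in HLF Inject-Embed (adjusted p = 4.26e-20) and 1.76 ± 0.064 in HLF Mix-Embed (adjusted p = 1.11e-25).

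ID2 (ENSG00000115738, chr2:8678845-8684453, plus strand), which acts like ID1 and also answers to other signals, did not follow them in every culture. In Huh7 it was at 120 and 125 CPM in 2D, 129 and 124 CPM in Inject-Embed, and 159 and 175 CPM in Mix-Embed. HLF had 131 and 129 CPM in 2D, 226 and 227 CPM in Inject-Embed, and 244 and 238 CPM in Mix-Embed. In Huh7 the Inject-Embed libraries overlapped those of 2D, and in HLF both gel cultures stood clear of 2D. ID2 rose in Huh7 Mix-Embed (log2 fold change 0.45 ± 0.055, adjusted p = 2.19e-08), in HLF Inject-Embed (0.80 ± 0.054, adjusted p = 5.01e-16) and in HLF Mix-Embed (0.89 ± 0.054, adjusted p = 6.92e-18). In Huh7 Inject-Embed its log2 fold change was 0.05 ± 0.057 (adjusted p = 0.583). The antisense gene ID2-AS1 overlaps ID2 and had at most 109 counts, against at least 1463 counts for ID2, so whichever strand was counted it could add little.

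Summed over ID1, ID2 and ID3, the level in Huh7 was 252 ± 15.7 CPM (SD, n = 2) in 2D, 409 ± 15.4 CPM in Inject-Embed and 424 ± 22.5 CPM in Mix-Embed. In HLF the sum was 279 ± 4.93 CPM in 2D, 612 ± 9.28 CPM in Inject-Embed and 750 ± 0.274 CPM in Mix-Embed. The make-up of the sum also differed. For Huh7, the ID3 share was 8.35% in 2D, 17.8% in Inject-Embed and 10.9% in Mix-Embed, and for HLF it was 23.5%, 25.9% and 29.5%. ID2 had the largest share in 2D in both lines (48.6% in Huh7 and 46.5% in HLF), and in the gel cultures ID1 had the largest, at 37.1% against 37.0% for ID2 in HLF Inject-Embed.

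SMAD6 (ENSG00000137834, chr15:66702228-66782848, plus strand) encodes an inhibitory SMAD that acts mainly on BMP receptors. Huh7 had 30.3 and 29.1 CPM of it in 2D, 54.9 and 48.9 CPM in Inject-Embed, and 44.8 and 44.0 CPM in Mix-Embed. The HLF libraries had 33.4 and 36.5 CPM in 2D, 44.6 and 45.0 CPM in Inject-Embed, and 51.7 and 46.8 CPM in Mix-Embed. All gel libraries stood above the flat ones of their line. The log2 fold change was 0.81 ± 0.090 in Huh7 Inject-Embed (adjusted p = 1.01e-09), 0.58 ± 0.090 in Huh7 Mix-Embed (adjusted p = 3.1e-06), 0.36 ± 0.087 in HLF Inject-Embed (adjusted p = 0.0021) and 0.49 ± 0.086 in HLF Mix-Embed (adjusted p = 1.19e-05). Without HLF 2D replicate 1 the HLF Inject-Embed value was 0.29 and missed the threshold (adjusted p = 0.0738).

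SMAD7 (ENSG00000101665, chr18:48919853-48952052, minus strand) encodes the other inhibitory SMAD, which blocks TGF-beta and BMP receptors alike. Flat Huh7 had 9.40 and 11.9 CPM of it, against 31.6 and 24.8 CPM in Inject-Embed and 24.8 and 24.4 CPM in Mix-Embed. Levels in HLF were 50.7 and 51.9 CPM in 2D, 54.2 and 58.9 CPM in Inject-Embed, and 47.2 and 51.3 CPM in Mix-Embed. The Huh7 gel libraries were all clear of 2D but stayed below every HLF library. SMAD7 rose in both gel cultures of Huh7, by a log2 fold change of 1.41 ± 0.12 in Inject-Embed (adjusted p = 1.64e-12) and 1.21 ± 0.13 in Mix-Embed (adjusted p = 3.38e-10). Its log2 fold change in HLF was 0.14 ± 0.091 (adjusted p = 0.331) in Inject-Embed and -0.06 ± 0.092 (adjusted p = 0.72) in Mix-Embed.

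BAMBI (ENSG00000095739, chr10:28677342-28682939, plus strand) encodes a decoy receptor that resembles a type I receptor but has no kinase. Its Huh7 levels were 51.7 and 54.8 CPM in 2D, 119 and 121 CPM in Inject-Embed, and 95 and 93.1 CPM in Mix-Embed. Its HLF levels were 30.9 and 29.0 CPM in 2D, 48.6 and 46.0 CPM in Inject-Embed, and 50.2 and 58.1 CPM in Mix-Embed. Within each line no gel library overlapped the flat ones. Its log2 fold change was 1.17 ± 0.072 in Huh7 Inject-Embed (adjusted p = 1.81e-17), 0.82 ± 0.073 in Huh7 Mix-Embed (adjusted p = 4.51e-12), 0.66 ± 0.081 in HLF Inject-Embed (adjusted p = 2.36e-08) and 0.86 ± 0.080 in HLF Mix-Embed (adjusted p = 7.75e-12).

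SKIL (ENSG00000136603, chr3:170357678-170396835, plus strand) encodes SnoN, a nuclear repressor that binds SMAD proteins. Levels in Huh7 were 67.7 and 58.6 CPM in 2D, 82.6 and 93.3 CPM in Inject-Embed, and 92.5 and 101 CPM in Mix-Embed. Those in HLF were 39.9 and 35.2 CPM in 2D, 43.0 and 47.4 CPM in Inject-Embed, and 38.1 and 39.1 CPM in Mix-Embed. The Huh7 gel libraries all stood above 2D, whereas in HLF those of Mix-Embed fell within the range of 2D. In Huh7, SKIL rose by a log2 fold change of 0.47 ± 0.079 with injection (adjusted p = 5.75e-06) and 0.61 ± 0.078 with mixing (adjusted p = 4.69e-08). In HLF Inject-Embed it rose by 0.27 ± 0.087 (adjusted p = 0.0239). In HLF Mix-Embed the value was 0.04 ± 0.088 (adjusted p = 0.805). The HLF Inject-Embed call was lost with DESeq2 (0.26, adjusted p = 0.1), with limma on log2(FPKM + 1) (0.26, adjusted p = 0.0877), without HLF 2D replicate 2 (0.19, adjusted p = 0.316) and without HLF Inject-Embed replicate 2 (0.20, adjusted p = 0.265).

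The ligands moved differently in the 2 lines. TGFB2 (ENSG00000092969, chr1:218346235-218444619, plus strand), which encodes a TGF-beta that needs the co-receptor betaglycan to bind well, was at 22.7 and 26.5 CPM in HLF 2D. It was at 8.04 and 8.15 CPM in HLF Inject-Embed and at 8.40 and 6.83 CPM in HLF Mix-Embed. Both gel cultures of HLF stood well below 2D without overlap. The log2 fold change was -1.60 ± 0.16 (adjusted p = 1.22e-10) in Inject-Embed and -1.70 ± 0.16 (adjusted p = 1.49e-11) in Mix-Embed, or a level 3.04-fold lower and 3.24-fold lower. In Huh7 the gene had 20 to 32 counts in each library, or 1.35 to 2.41 CPM, with overlapping groups. There the log2 fold change was 0.31 ± 0.31 (adjusted p = 0.507) in Inject-Embed and 0.27 ± 0.31 (adjusted p = 0.61) in Mix-Embed, and at this depth the SE was as large as the value itself.

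BMP4 (ENSG00000125378, chr14:53949736-53958761, minus strand) encodes a BMP ligand that signals through SMAD1, SMAD5 and SMAD9. In HLF it had 64 and 70 counts in 2D (3.96 and 4.41 CPM), 33 and 22 counts in Inject-Embed (2.14 and 1.38 CPM), and 30 and 23 counts in Mix-Embed (2.05 and 1.37 CPM). In Huh7 it was at 11.9 and 13.2 CPM in 2D, 16.2 and 15.8 CPM in Inject-Embed, and 16.2 and 19.0 CPM in Mix-Embed. The gel libraries were below 2D in HLF and above 2D in Huh7. BMP4 fell in HLF Inject-Embed (log2 fold change -1.25 ± 0.25, adjusted p = 0.000242) and HLF Mix-Embed (-1.31 ± 0.26, adjusted p = 7.76e-05), and rose in Huh7 Mix-Embed (0.48 ± 0.16, adjusted p = 0.0216). The Huh7 Inject-Embed value was 0.35 ± 0.16 (adjusted p = 0.0969). The rise in Huh7 Mix-Embed was lost with DESeq2 (0.47, adjusted p = 0.151), with limma on log2(FPKM + 0.1) (0.46, adjusted p = 0.188), without Huh7 2D replicate 1 (0.41, adjusted p = 0.163) and without Huh7 Mix-Embed replicate 2 (0.36, adjusted p = 0.26).

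TGFB1 (ENSG00000105329, chr19:41301587-41353911, minus strand), the TGF-beta with the widest expression, moved least. HLF had 162 and 150 CPM in 2D, 141 and 135 CPM in Inject-Embed, and 138 and 140 CPM in Mix-Embed. Huh7 had 19.2 and 20.2 CPM in 2D, 19.0 and 16.3 CPM in Inject-Embed, and 15.5 and 18.2 CPM in Mix-Embed. The gel libraries lay below the flat ones in both lines by a small margin. In HLF the log2 fold change was -0.18 ± 0.062 (adjusted p = 0.0379) in Inject-Embed and -0.16 ± 0.062 (adjusted p = 0.0413) in Mix-Embed. Both calls were lost with library totals as the only scaling (-0.14, adjusted p = 0.133, and -0.10, adjusted p = 0.227), with DESeq2 (adjusted p = 0.122 and 0.118) and without HLF 2D replicate 1 (-0.12, adjusted p = 0.405, and -0.11, adjusted p = 0.399). Dropping HLF Inject-Embed replicate 1 or 2 (-0.21 and -0.14), HLF 2D replicate 2 (-0.21 in Mix-Embed) or HLF Mix-Embed replicate 1 or 2 (-0.14 and -0.17) also ended one of them. In Huh7 the log2 fold change was -0.15 ± 0.10 (adjusted p = 0.3) in Inject-Embed and -0.23 ± 0.10 (adjusted p = 0.118) in Mix-Embed. TGFB1 overlaps HNRNPUL1 and CCDC97 on the opposite strand, which had up to 7356 and 830 counts, while TGFB1 had as few as 192. The strand setting of the counting is not given, so reads from the shared stretches cannot be told apart and the values for TGFB1 are uncertain.

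The embedding methods differed for 3 genes in Huh7 and for 2 in HLF. In Huh7, 2 genes were higher in Inject-Embed than in Mix-Embed, where 9.55% of all tested genes were called higher, and 1 was lower, where 13.4% were. ID3 (log2 difference 0.66 ± 0.074, adjusted p = 1.72e-09) and BAMBI (0.35 ± 0.069, adjusted p = 0.00011) were higher in Inject-Embed, and ID2 was lower (-0.40 ± 0.056, adjusted p = 3.11e-07). In HLF none was higher, against 3.56% of all tested genes, and 2 were lower, against 4.71%: ID1 (-0.34 ± 0.054, adjusted p = 1.3e-05) and ID3 (-0.48 ± 0.059, adjusted p = 6.95e-08). ID3 was thus higher with injection in Huh7 and higher with mixing in HLF. With library totals as the only scaling, 52.88% of the genes called in Huh7 were higher in Inject-Embed, against 41.67% with TMM. Without Huh7 Inject-Embed replicate 2, SMAD6 (0.31, adjusted p = 0.031) and SMAD7 (0.37, adjusted p = 0.0349) were called as well in Huh7, which made 5 genes. Without HLF Mix-Embed replicate 1, BAMBI (-0.31, adjusted p = 0.0254) was called lower in HLF Inject-Embed than in Mix-Embed. Cell numbers per well also differed between the methods and cannot be told apart from them.

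The change with culture was then compared between the lines, as the log2 fold change in Huh7 minus that in HLF, in the same fit. Gel wells received more Huh7 than HLF cells (4000 against 2000 in Inject-Embed, 20000 against 10000 in Mix-Embed). Line and cell number cannot be told apart in this comparison. For Inject-Embed against 2D, 8 of the 10 genes differed between the lines, where 24.8% of all tested genes did. For Mix-Embed against 2D 7 differed, against 20.4%, and for Inject-Embed against Mix-Embed 6 differed, against 10.6%. With library totals as the only scaling, the share of positive differences among all calls was 37.14% for Mix-Embed against 2D (49.9% with TMM) and 61.19% for Inject-Embed against Mix-Embed (43.69% with TMM). The ID genes rose more in HLF, with ID3 in Inject-Embed as the exception. The difference was -0.49 ± 0.082 for ID1 (adjusted p = 8.05e-06), -0.76 ± 0.078 for ID2 (adjusted p = 2.12e-10) and 0.52 ± 0.11 for ID3 (adjusted p = 0.000139) in Inject-Embed. In Mix-Embed it was -0.82 ± 0.081 for ID1 (adjusted p = 8.42e-11), -0.44 ± 0.077 for ID2 (adjusted p = 1.86e-05) and -0.62 ± 0.11 for ID3 (adjusted p = 1.97e-05).

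SMAD7 was the feedback inhibitor with the largest gap between the lines. Its rise was greater in Huh7 by 1.27 ± 0.15 in Inject-Embed (adjusted p = 1.24e-08) and by 1.26 ± 0.16 in Mix-Embed (adjusted p = 2.24e-08). For BAMBI the gap was 0.51 ± 0.11 in Inject-Embed (adjusted p = 0.000288) and -0.04 ± 0.11 in Mix-Embed (adjusted p = 0.914), and for SMAD6 it was 0.45 ± 0.12 (adjusted p = 0.00545) and 0.09 ± 0.12 (adjusted p = 0.733). Without Huh7 Inject-Embed replicate 1, the SMAD6 gap in Inject-Embed was 0.36 and missed the threshold (adjusted p = 0.0628). SKIL differed in Mix-Embed (0.57 ± 0.12, adjusted p = 0.000243) and had a value of 0.21 ± 0.12 in Inject-Embed (adjusted p = 0.223). Among the ligands, the gap was 1.91 ± 0.35 (adjusted p = 3.8e-05) and 1.97 ± 0.35 (adjusted p = 2.85e-05) for TGFB2, and 1.60 ± 0.30 (adjusted p = 5.2e-05) and 1.79 ± 0.30 (adjusted p = 1.12e-05) for BMP4, in Inject-Embed and Mix-Embed. For TGFB1 it was 0.03 ± 0.12 (adjusted p = 0.973) and -0.06 ± 0.12 (adjusted p = 0.823).

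**Figure D3:**
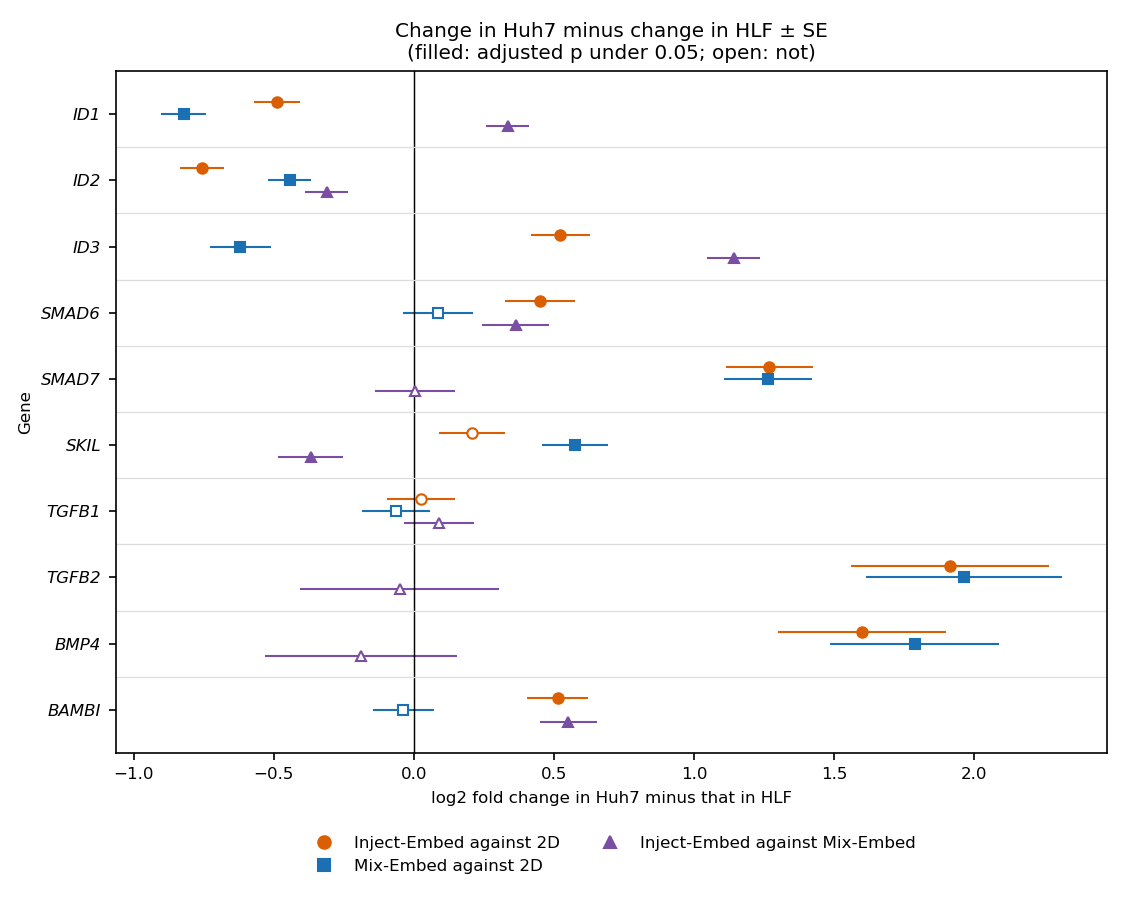
Log2 fold change in Huh7 minus that in HLF (x axis) for each gene (y axis), with bars of 1 SE, for Inject-Embed against 2D (orange circles), Mix-Embed against 2D (blue squares) and Inject-Embed against Mix-Embed (purple triangles). Filled symbols passed adjusted p under 0.05. SMAD7, TGFB2 and BMP4 are right of 0 for both gel cultures against 2D, ID1 and ID2 are left of 0, and ID3 changes side.

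Between the embedding methods, ID3 gave the largest gap between the lines, 1.14 ± 0.094 (adjusted p = 1.13e-12), followed by BAMBI at 0.55 ± 0.10 (adjusted p = 0.000132) and ID1 at 0.33 ± 0.077 (adjusted p = 0.00223). ID2 (-0.31 ± 0.076, adjusted p = 0.00415), SMAD6 (0.36 ± 0.12, adjusted p = 0.0437) and SKIL (-0.37 ± 0.12, adjusted p = 0.0321) also passed. These latter 3 were lost without HLF Inject-Embed replicate 1, where the values were -0.27, 0.40 and -0.39, without HLF Inject-Embed replicate 2, where they were -0.26, 0.41 and -0.25, without Huh7 Mix-Embed replicate 2, where they were -0.24, 0.36 and -0.30, and with limma on log2(FPKM + 0.1). The count was then 3 of 10. SMAD6 and SKIL were also lost without Huh7 Inject-Embed replicate 1 (0.28 and -0.28) and without HLF Mix-Embed replicate 1 (0.34 and -0.30), SMAD6 without Huh7 Mix-Embed replicate 1 (0.37), and ID2 and SKIL without HLF Mix-Embed replicate 2 (-0.25 and -0.35). With DESeq2, SMAD6 (0.37, adjusted p = 0.11) and SKIL (-0.36, adjusted p = 0.12) were lost as well. The same held for limma on log2(FPKM + 1) (adjusted p = 0.0566 and 0.226). SMAD6 was also lost with no filter (0.35, adjusted p = 0.11), and SKIL with library totals as the only scaling (-0.30, adjusted p = 0.0854).

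Set against each other in the same culture, the lines differed for most of the 10 genes, as they did for most genes. In gel, the number of cells seeded per well differed between the lines as well. In 2D, 4 genes were higher and 5 lower in Huh7 than in HLF, where 38.1% of all tested genes were called higher and 39.2% lower. In Inject-Embed the count was 4 higher and 5 lower, against 37.6% and 39.5%, and in Mix-Embed 3 higher and 6 lower, against 37.9% and 39.1%. TGFB1 was lower in Huh7 than in HLF by a similar margin in each culture, with a log2 difference of -2.99 ± 0.078 in 2D (adjusted p = 8.35e-33), -2.96 ± 0.083 in Inject-Embed and -3.05 ± 0.082 in Mix-Embed. For TGFB2 the difference was -3.82 ± 0.21 in 2D, -1.90 ± 0.23 in Inject-Embed and -1.85 ± 0.23 in Mix-Embed. With library totals as the only scaling, the median log2 difference of all genes lay at -0.18, -0.20 and -0.25 in the 3 cultures, a shift of -0.16, -0.16 and -0.23 from its place with TMM. BMP4 went the other way, at 1.58 ± 0.19 in 2D, 3.18 ± 0.21 in Inject-Embed and 3.37 ± 0.21 in Mix-Embed. For SMAD7 the gap narrowed from -2.27 ± 0.11 in 2D to -0.996 ± 0.10 in Inject-Embed and -1.002 ± 0.10 in Mix-Embed.

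SKIL and BAMBI were higher in Huh7 in all 3 cultures. For SKIL the log2 difference was 0.75 ± 0.084 in 2D and 1.33 ± 0.082 in Mix-Embed, and for BAMBI 0.83 ± 0.081 in 2D and 1.34 ± 0.073 in Inject-Embed. ID1 was higher in Huh7 in 2D (0.38 ± 0.061, adjusted p = 4.71e-07) and lower in Mix-Embed (-0.45 ± 0.054, adjusted p = 7.1e-10). In Inject-Embed its value was -0.11 ± 0.055 (adjusted p = 0.0598), and it was called lower with library totals as the only scaling (-0.28, adjusted p = 1.57e-05). ID2 was lower in Huh7 in both gel cultures (-0.84 ± 0.055 and -0.53 ± 0.053), and its value in 2D was -0.09 ± 0.056 (adjusted p = 0.161), which was called with library totals as the only scaling (-0.24). ID3 was lower in Huh7 in all 3 cultures, by -1.64 ± 0.081, -1.12 ± 0.065 and -2.26 ± 0.068. SMAD6 was called lower in Huh7 2D (-0.23 ± 0.091, adjusted p = 0.0194) and higher in Huh7 Inject-Embed (0.22 ± 0.085, adjusted p = 0.0208). The former was lost with DESeq2 (adjusted p = 0.0844) and without Huh7 2D replicate 2 (-0.21) or HLF 2D replicate 2 (-0.20). The latter was lost with library totals as the only scaling (0.05, adjusted p = 0.593), with both limma fits (0.04 and 0.05), with DESeq2 (adjusted p = 0.0662), with no filter (adjusted p = 0.0862), without Huh7 Inject-Embed replicate 1 (0.12) and without HLF Inject-Embed replicate 1 (0.20) or 2 (0.21). In Mix-Embed its value was -0.15 ± 0.085 (adjusted p = 0.113). It was called there with library totals as the only scaling (-0.37, adjusted p = 0.000127), with limma on log2(FPKM + 1) (-0.32, adjusted p = 0.00285) or log2(FPKM + 0.1) (-0.37, adjusted p = 0.0031), and without HLF Mix-Embed replicate 2 (-0.27, adjusted p = 0.0188).

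Ordered by mean CPM over the 6 groups, 26 of the 50 pairs of neighbouring groups of a gene differed by the same test. The order was taken from these same values, and some pairs set the lines against each other. Between the lines in the same culture, 37.6% to 39.5% of all tested genes were called in each direction. No share over all genes was computed for the neighbouring pairs, so the count describes these genes only. ID3 had the fullest order, with all 5 steps apart: HLF Mix-Embed, HLF Inject-Embed, Huh7 Inject-Embed, HLF 2D, Huh7 Mix-Embed and Huh7 2D, from high to low. Its step from Huh7 Inject-Embed to HLF 2D was only 0.16 on the log2 scale (adjusted p = 0.0382). In FPKM these libraries overlapped, at 41.1 and 36.3 in Huh7 Inject-Embed against 38.8 and 36.8 in HLF 2D. BAMBI ran from Huh7 Inject-Embed over Huh7 Mix-Embed to HLF Mix-Embed and Huh7 2D, which did not differ (adjusted p = 0.744), then to HLF Inject-Embed and HLF 2D. The BAMBI step from Huh7 2D to HLF Inject-Embed was 0.17 on the log2 scale (adjusted p = 0.0402). In FPKM these 2 groups overlapped and their means were reversed, at 21.5 and 21.9. For ID1, HLF Mix-Embed led, then came HLF Inject-Embed and both Huh7 gel cultures with no difference past the threshold between neighbours, then Huh7 2D and HLF 2D, each a step apart. For ID2 both HLF gel cultures came first, then Huh7 Mix-Embed, then HLF 2D, Huh7 Inject-Embed and Huh7 2D, whose neighbours did not differ past the threshold. SMAD6 had 4 gel groups without a step between neighbours (adjusted p = 0.392, 0.393 and 0.911), above HLF 2D and Huh7 2D. For SMAD7 the 3 HLF groups led without a step, the Huh7 gel groups followed, and Huh7 2D was last. SKIL had the reverse order of lines, with the Huh7 gel groups first, Huh7 2D next and the 3 HLF groups last. TGFB1 and TGFB2 had all HLF groups above all Huh7 groups, with HLF 2D first, and BMP4 had all Huh7 groups above HLF 2D and the HLF gel groups.

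Each gene was also compared with the 1076 protein-coding genes outside the 10 that reached at least 10 CPM in 1 group and had group means at least 1 apart on the log2 scale within a line, by Pearson's r of log2 CPM over the 12 libraries after subtraction of the mean of each line. The libraries share their line and culture, so r describes likeness of pattern and has no p. The closest of these genes were FCGRT (r = 0.975), SDSL (0.969) and SPRY2 (0.967) for ID1, and CPS1 (0.955), ID4 (0.942) and SDSL (0.937) for ID3. For BAMBI they were UGT2B7 (0.959), DGAT2 (0.957) and CYP27A1 (0.934), which encode enzymes of glucuronidation, triglyceride synthesis and sterol oxidation. For SMAD7 they were EPHB2 (0.973), MT1E (0.968) and DPYSL3 (0.965). For TGFB2 they were ASB5 (0.935), PPME1 (0.93) and NTN4 (0.924), and for BMP4 FST (0.92), IGFBP3 (0.897) and PPME1 (0.897). Among the 10 genes, the most alike pairs were ID3 with BAMBI (r = 0.979), SMAD6 with BAMBI (0.953), ID3 with SMAD6 (0.95), ID1 with ID3 (0.939) and TGFB2 with BMP4 (0.902), each over the 12 libraries.

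The rest of the pathway was read from 6 lists, also chosen with earlier results of these data known, so their shares are descriptive. For each, the shares that rose or fell stand against 13.2% and 16.7% of all tested genes when Huh7 was injected, 11.2% and 10.6% when it was mixed in, 9.09% and 8.86% for injected HLF, and 14.4% and 14.6% for mixed HLF, with a median over all genes of -0.01 to 0.00. Of 9 other BMP target genes, 7 passed the filter on low counts, and MSX2 and DLX3 did not. In Huh7 Inject-Embed 4 rose against 2D (ID4, MSX1, HEY1, GATA2) and 1 fell (RUNX2), with a median log2 fold change of 0.47 over the list and -0.01 over all tested genes. In Huh7 Mix-Embed 3 rose and none fell (median 0.52, against 0.00 over all genes), in HLF Inject-Embed 2 rose and 1 fell (median 0.49, against 0), and in HLF Mix-Embed 3 rose and none fell (median 0.43, against 0.00). ID4, the remaining ID gene, was called in all 4. In Huh7 its level rose from 4.76 ± 0.25 CPM to 14.8 ± 1.62 CPM in Inject-Embed and 6.888 ± 2.255 CPM in Mix-Embed (SD, n = 2). In HLF it rose from 46.3 ± 2.01 CPM to 143 ± 3.33 CPM in Inject-Embed and 159 ± 5.65 CPM in Mix-Embed. HEY1, a transcriptional repressor induced by Notch and BMP signals, rose in Huh7 from 8.64 ± 0.156 CPM to 32.9 ± 0.602 CPM in Mix-Embed. ATOH8, a helix-loop-helix factor induced by BMP, rose in HLF from 24.3 ± 1.96 CPM to 60.5 ± 5.24 CPM in Mix-Embed. HAMP, which encodes hepcidin, rose in Huh7 Mix-Embed (log2 fold change 1.05 ± 0.37, adjusted p = 0.035) from 2.53 and 1.95 CPM to 4.88 and 4.44 CPM, and was at 0 in HLF 2D and HLF Mix-Embed.

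The 14 TGF-beta target genes outside the 10 all passed the filter and moved in both directions. In Huh7 Inject-Embed 2 rose and 6 fell, in Huh7 Mix-Embed 3 rose and 1 fell, in HLF Inject-Embed 2 rose and 4 fell, and in HLF Mix-Embed 5 rose and 5 fell. The 2 that rose in Huh7 Inject-Embed are 14.3% of the list, close to the 13.2% of all genes, while the 6 that fell are 42.9%, against 16.7%. In HLF Mix-Embed each direction held 35.7% of the list. Their median log2 fold change was -0.51, 0.05, -0.07 and 0.12 in that order. TAGLN, which encodes the actin-binding protein transgelin, fell in HLF from 48 ± 1.86 CPM to 5.29 ± 0.236 CPM and 4.51 ± 0.00269 CPM. TGFBI, a secreted matrix protein gene named for its induction by TGF-beta, fell in all 4 comparisons, by 0.80 and 0.64 on the log2 scale in Huh7 and by 0.84 in HLF Inject-Embed. JUNB, an AP-1 factor, went the other way in HLF, from 19.4 ± 1.14 CPM to 41.6 ± 3.8 CPM in Inject-Embed and 68.8 ± 4.11 CPM in Mix-Embed.

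Of 17 receptors and co-receptors, 16 were tested. In Huh7, 6 fell and none rose in Inject-Embed, and 3 fell and 1 rose in Mix-Embed. In HLF, 4 rose and 1 fell in Inject-Embed, and 7 rose and 1 fell in Mix-Embed. These 7 are 43.8% of the list, against 14.4% of all genes, and the 6 that fell in Huh7 Inject-Embed are 37.5%, against 16.7%. The list's median log2 fold change was -0.24, -0.13, 0.18 and 0.20 in that order, against medians of -0.01 to 0.00 over all genes. TGFBR2, the type II receptor for TGF-beta, fell in Huh7 from 144 ± 2.11 CPM to 111 ± 7.03 CPM in Inject-Embed and 90.2 ± 4.31 CPM in Mix-Embed. In HLF it rose from 33.6 ± 0.402 CPM to 49.5 ± 1.22 CPM and 67.0 ± 3.52 CPM. The difference between the lines was -0.94 ± 0.099 for TGFBR2 in Inject-Embed (adjusted p = 3.4e-10) and -1.67 ± 0.097 in Mix-Embed (adjusted p = 7.89e-18). ENG, the co-receptor endoglin, rose in HLF from 75.3 ± 0.115 CPM to 130 ± 2.65 CPM in Mix-Embed.

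**Figure D4:**
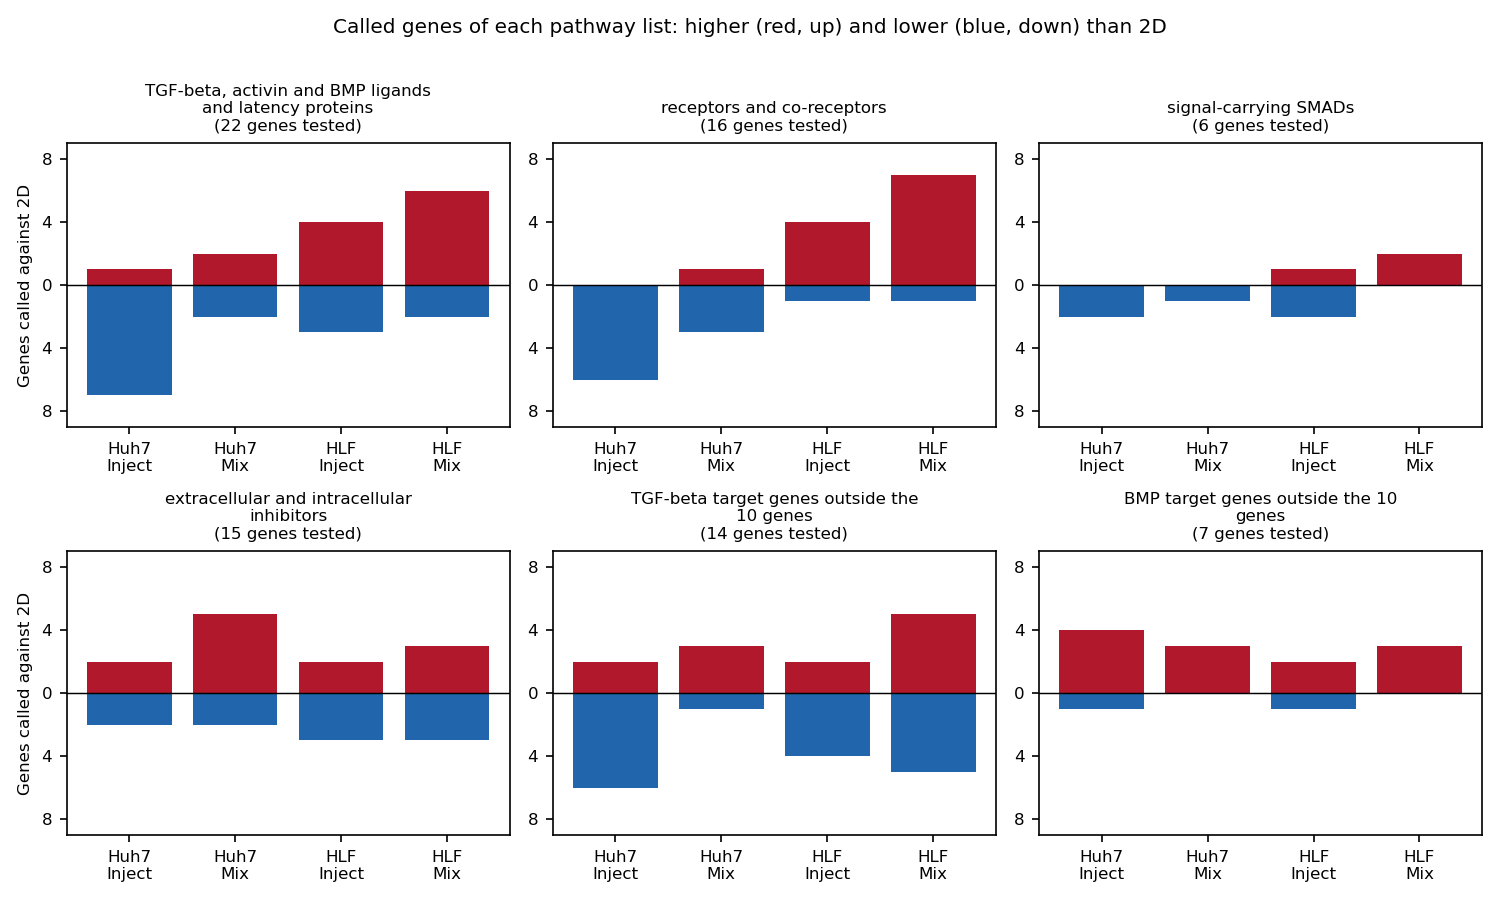
Number of genes called against 2D in each of 6 pathway lists, by line and gel culture; red bars upward count genes that were higher and blue bars downward genes that were lower. Receptors show 6 lower genes in Huh7 Inject-Embed (37.5%, against 16.7% of all tested genes) and 7 higher genes in HLF Mix-Embed (43.8%, against 14.4%). The lists were chosen with earlier results of these data known.

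Of 29 other ligands and latency proteins, 22 were tested. In Huh7 Inject-Embed 1 rose and 7 fell, in Huh7 Mix-Embed 2 rose and 2 fell, in HLF Inject-Embed 4 rose and 3 fell, and in HLF Mix-Embed 6 rose and 2 fell (median log2 fold changes -0.10, 0.07, 0.07 and -0.02). In Huh7 Mix-Embed the share of 9.09% in each direction was near that of all genes, at 11.2% and 10.6%, and in Huh7 Inject-Embed the 7 that fell are 31.8%, against 16.7%. INHBE, an activin subunit made by hepatocytes, fell in Huh7 Inject-Embed from 31.9 ± 4.44 CPM to 17.4 ± 0.469 CPM and rose in Mix-Embed to 45.3 ± 0.48 CPM. LTBP4, which binds latent TGF-beta to the matrix, rose in HLF from 158 ± 5.49 CPM to 178 ± 7.47 CPM and 221 ± 17.1 CPM. Among the 6 SMADs that carry the signal, 2 fell in Huh7 Inject-Embed (SMAD3 and SMAD5), 1 fell in Huh7 Mix-Embed (SMAD5), 1 rose and 2 fell in HLF Inject-Embed (SMAD9, and SMAD3 and SMAD2), and 2 rose in HLF Mix-Embed (SMAD9 and SMAD1), with medians of -0.04, -0.06, 0.03 and -0.07.

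Of 19 other inhibitors, 15 were tested. In Huh7 Inject-Embed 2 rose and 2 fell, in Huh7 Mix-Embed 5 rose and 2 fell, in HLF Inject-Embed 2 rose and 3 fell, and in HLF Mix-Embed 3 rose and 3 fell (medians 0, 0.11, -0.11 and -0.07). In Huh7 Inject-Embed the share of 13.3% in each direction was near the 13.2% and 16.7% of all genes, and in Huh7 Mix-Embed the 5 that rose are 33.3%, against 11.2%. FST, which encodes follistatin, a trap for activins, rose in Huh7 from 24.2 ± 1.72 CPM to 50.7 ± 2.41 CPM in Inject-Embed and 51.1 ± 0.677 CPM in Mix-Embed. In HLF it fell from 3.28 and 3.09 CPM to 0.584 and 0.376 CPM in Inject-Embed and 0.752 and 0.713 CPM in Mix-Embed. The lines differed in this change by 3.78 ± 0.33 for FST in Inject-Embed (adjusted p = 2.61e-12) and by 3.19 ± 0.31 in Mix-Embed (adjusted p = 4.07e-11). CHRD, which encodes the BMP trap chordin, fell in Huh7 Inject-Embed from 42.6 ± 3.81 CPM to 16.3 ± 1.32 CPM. SKI, a relative of SKIL, rose in Huh7 from 109 ± 5.79 CPM to 152 ± 7.95 CPM in Inject-Embed.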

How the data were processed

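RNA was measured in 12 libraries of poly-A RNA, sequenced as read pairs of 150 bases. Per the submitters' processing notes, FastQC, Trimmomatic, STAR 2.7.9a and featureCounts were used with GRCh38. How these were set, which strand was counted and which annotation release served were not stated in any source used here. The authors deposited raw counts per gene and a table of FPKM, with the gene length in bases as another column of each deposited table. The deposited FPKM equalled the count over length and library total within a relative 1e-06 for all 167453 values checked (those with at least 20 counts). Because FPKM are scaled by library totals alone, they can differ from TMM-scaled values between lines.

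Counts were tested with edgeR 4.0.16 (R 4.3.3): TMM scaling, filterByExpr with a minimum count of 10 (19342 genes left), 1 mean for each of 6 groups, quasi-likelihood tests, and Benjamini-Hochberg adjustment over all tested genes at 0.05. The fit had 6 residual degrees of freedom and 36.26 prior ones drawn from all genes, which thus weighed more in the spread of a gene. CPM are TMM-scaled, except in the marker sums, which use library totals alone. SE was taken as the absolute log2 fold change over the root of the F statistic. The procedure was tested on simulated data. Alternatives were RLE scaling, library totals alone, no filter, DESeq2 1.42.0, limma 3.58.1 on log2(FPKM + 1) and log2(FPKM + 0.1), the compared line or groups alone, a replicate block, and each library left out. Replicate numbers did not pair the samples: over 15 pairs of groups, r of same-numbered deviations ran from -0.148 to 0.116.

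The 10 genes and all lists were chosen with earlier results of these data known. Named genes of a list were taken from up to 3 called genes of smallest adjusted p reaching 10 CPM in the higher group, and up to 2 of the opposite direction. HAMP, and FST in HLF, fall outside that rule and were chosen after their values were seen. ID4 in Huh7 Mix-Embed, which stayed below 10 CPM, falls outside it too. GATA2, RUNX2 and SMAD9 were named only as called genes of their list, also outside the rule. Matches to motifs were sought in RefSeq promoters of GRCh38.p14.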

Additional observations from a re-analysis of the deposited data

Results flagged for a closer look

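A change with culture that differed between Huh7 and HLF, by the interaction test of the fit over all genes, marked 21 results. All are log2 fold changes in Huh7 minus those in HLF, and the 10 genes were tested in 3 such comparisons. The 2D libraries, and each gel culture, serve more than 1 comparison, so these results are not independent of each other. Gel wells were seeded with more Huh7 than HLF cells, so line and cell number cannot be told apart.

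For Inject-Embed against 2D, the ID genes split: the difference was -0.49 for ID1 and -0.76 for ID2, which rose more in HLF, and 0.52 for ID3, which rose more in Huh7. Of the 4 feedback inhibitors, 3 rose more in Huh7, with 0.45 for SMAD6, 1.27 for SMAD7 and 0.51 for BAMBI, while SKIL had a value of 0.21 that did not pass (adjusted p = 0.223). The SMAD6 value was 0.36 without Huh7 Inject-Embed replicate 1 and missed the threshold (adjusted p = 0.0628). The ligands TGFB2 and BMP4, which fell in HLF, had differences of 1.91 and 1.60.

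For Mix-Embed against 2D, all 3 ID genes rose more in HLF, with -0.82 for ID1, -0.44 for ID2 and -0.62 for ID3. The difference was 1.26 for SMAD7, 0.57 for SKIL, 1.97 for TGFB2 and 1.79 for BMP4.

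Between Inject-Embed and Mix-Embed, the difference was 0.33 for ID1, -0.31 for ID2, 1.14 for ID3, 0.36 for SMAD6, -0.37 for SKIL and 0.55 for BAMBI. ID3 had the most extreme of these 6, since injection exceeded mixing in Huh7 and fell short of it in HLF. The calls of ID2, SMAD6 and SKIL were lost under several alternatives, given above.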

How the results depend on the processing

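Of 120 results on single genes (10 genes in 12 comparisons), 102 kept their call under all alternatives run, among them 73 of the 84 called. No called value changed sign. Of the values called neither here nor under the alternative, 43 had the other sign, in 17 results, none larger than 0.296 in size. The number of genes called stayed within 1.5 times under all alternatives for 10 of the 12 comparisons and for the steps in the order of levels. For Inject-Embed against Mix-Embed in Huh7 it was 3, and 3 to 5 with 1 library left out. For the difference of that comparison between the lines it was 6, 3 with limma on log2(FPKM + 0.1), and 3 to 6 with 1 library left out. These lost calls are named in the report, and their cause was not tested. Calls were gained in 7 results. BMP4 in Huh7 Inject-Embed against 2D was called with the line fitted alone (0.38, adjusted p = 0.0328). SMAD6 in Huh7 Inject-Embed against Mix-Embed was called with RLE scaling (0.24, adjusted p = 0.0384), library totals alone (0.27, adjusted p = 0.0172) and the line fitted alone (0.27, adjusted p = 0.0231), besides the left-out library given in the report. ID1 between the lines in Inject-Embed was called with library totals, both limma fits, no filter (-0.14) and the groups fitted alone (-0.11), and ID2 between the lines in 2D with library totals and both limma fits (-0.24 in each). The gains of SMAD7, of BAMBI and of SMAD6 between the lines in Mix-Embed stand in the report. The replicate block changed no call: ID1 in Huh7 Inject-Embed against 2D had a log2 fold change of 0.95 with it. With 20 to 70 counts a library, TGFB2 in Huh7 and BMP4 in HLF are the values that depth limits most.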
